A study of Mus musculus with 31 samples.

Results

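The complement genes of cultured mouse heart fibroblasts were followed here: C3, C4b, C7, C1ra, Cfb, Serping1, Cd55 and Masp1. They were taken from the count table by their symbols, 8 of 24419 different symbols, and all 8 passed the filter on low counts, which kept 14036 genes. Expression was measured by RNA sequencing in 29 libraries of 10 groups. The cells came from C57Bl/6 mice aged 8 to 12 weeks and were kept in flat culture (2D), in 3D, or in several arrangements in turn, the order of which was read from labels such as 3D-2D. The groups were 3D-2D-3D, 3D-2D-2D, 3D-2D, 3D and 2D with no stated time, 3D-5days and 2D-5days, and 2D on substrates of 0.5, 8 and 64 kPa. Each held 3 libraries except 3D-2D, which held 2. No group carries an allele or an added agent in the labels. How long the cells spent in each arrangement, what the substrates were made of, and whether libraries came from separate mice or cultures are not stated in the sources used here. The p-values thus measure the spread among these libraries only, and that spread may be technical.

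Complement is a cascade of plasma proteins that tags surfaces for uptake and can pierce membranes. The classical pathway starts with C1q and its proteases C1r and C1s, which cut C4 and C2. The lectin pathway starts with collectins and the MASP proteases, and the alternative pathway runs through C3 and factor B. All of them cut C3, and C5 to C9 then build the membrane attack complex, while C1 inhibitor and decay-accelerating factor hold the cascade back. The liver makes most of the circulating proteins, and fibroblasts and macrophages make several of them locally.

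Promoter sequence, 250 bases before to 50 bases after the start site, was in the RefSeq table of build GRCm38.p6 for 4 of the 8 genes (C3, C7, C1ra and Cd55). The sequences of C3, C1ra and C7 are shown because they are the central protein, a starter protease and a terminal protein of the cascade. Capitals mark matches, on either strand, to TTGCNNAA (C/EBP), TTCNNNGAA (GAS, the site class of STAT factors) or the TATA box. They are read 5′ to 3′ along the gene, C3 from chr17:57228087-57228386 on the minus strand, C1ra from chr6:124512371-124512670 on the plus strand, and C7 from chr15:5063724-5064023 on the minus strand.
C3: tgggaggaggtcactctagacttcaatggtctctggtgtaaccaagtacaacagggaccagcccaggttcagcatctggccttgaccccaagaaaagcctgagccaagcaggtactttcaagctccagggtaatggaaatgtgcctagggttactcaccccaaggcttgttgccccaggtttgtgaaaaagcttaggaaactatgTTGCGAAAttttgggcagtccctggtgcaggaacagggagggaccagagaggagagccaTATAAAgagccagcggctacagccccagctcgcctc
C1ra: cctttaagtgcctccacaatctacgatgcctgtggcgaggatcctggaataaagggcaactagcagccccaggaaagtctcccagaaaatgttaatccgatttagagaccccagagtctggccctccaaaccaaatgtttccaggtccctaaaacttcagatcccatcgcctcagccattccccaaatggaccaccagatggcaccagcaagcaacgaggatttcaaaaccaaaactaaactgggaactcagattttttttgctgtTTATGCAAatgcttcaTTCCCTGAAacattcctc
C7: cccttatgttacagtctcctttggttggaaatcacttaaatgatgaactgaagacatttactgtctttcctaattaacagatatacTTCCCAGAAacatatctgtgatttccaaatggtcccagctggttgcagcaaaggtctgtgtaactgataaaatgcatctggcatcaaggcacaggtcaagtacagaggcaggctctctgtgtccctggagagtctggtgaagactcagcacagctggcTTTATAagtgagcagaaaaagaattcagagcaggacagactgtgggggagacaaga
The C/EBP letters were found in C3 at base -45 from the start site and in C1ra at base 16. The GAS letters were found in C1ra at base 32 and in C7 at base -164, and the TATA box letters in C3 at base 14 and in C7 at base -6. Of 32851 promoters of the same length, 10.8% held the C/EBP letters, 8.3% the GAS letters and 13.6% the TATA box letters. The interferon response element (ISRE; 3.44% of promoters) and the NF-kB motif (1.63%) were not in the windows of the 4 genes, and Cd55 held no match to any of the 5 motifs. A match describes the letters only.

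Levels are given as CPM, counts scaled to the effective library total, and are compared within a gene, not between genes, since they are not per length. Library totals ran from 8509987 to 29909400 gene counts. The 10 fibroblast markers summed to between 17118 CPM (lowest library, 2D-8kPa) and 74666 CPM (highest, 3D-2D-2D), with no marker at 0 in any group. The 20 macrophage markers were all detected in every group and differed widely, from 279 CPM in 3D replicate 3 to 14751 CPM in 3D-5days replicate 1. In bulk RNA, fewer cells of a type and less RNA per cell cannot be told apart. Replicate 3 stood apart from replicates 1 and 2 in 2D, 3D, 3D-2D-3D and the substrate groups, and replicate 1 stood apart at 5 days: in 3D, the SD of log2 CPM differences over genes was 0.280 between replicates 1 and 2, and 1.06 and 0.966 between them and replicate 3. Replicates 1 and 2 of 3D-2D-3D, 3D-2D, 3D and 2D held Xist reads and at most 7 Y-linked reads. Both kinds were present in replicate 3 of 3D-2D-3D, 3D and 2D and in every library of 3D-2D-2D and of the 5-day groups, whereas substrate libraries had Y-linked reads and 1 to 7 Xist reads. Acta2, the smooth muscle actin of activated fibroblasts, was lower in 3D than in 2D by 5.84 ± 0.47 on the log2 scale (log2 fold change -5.84, adjusted p = 2.64e-09 by edgeR).

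**Figure D1:**
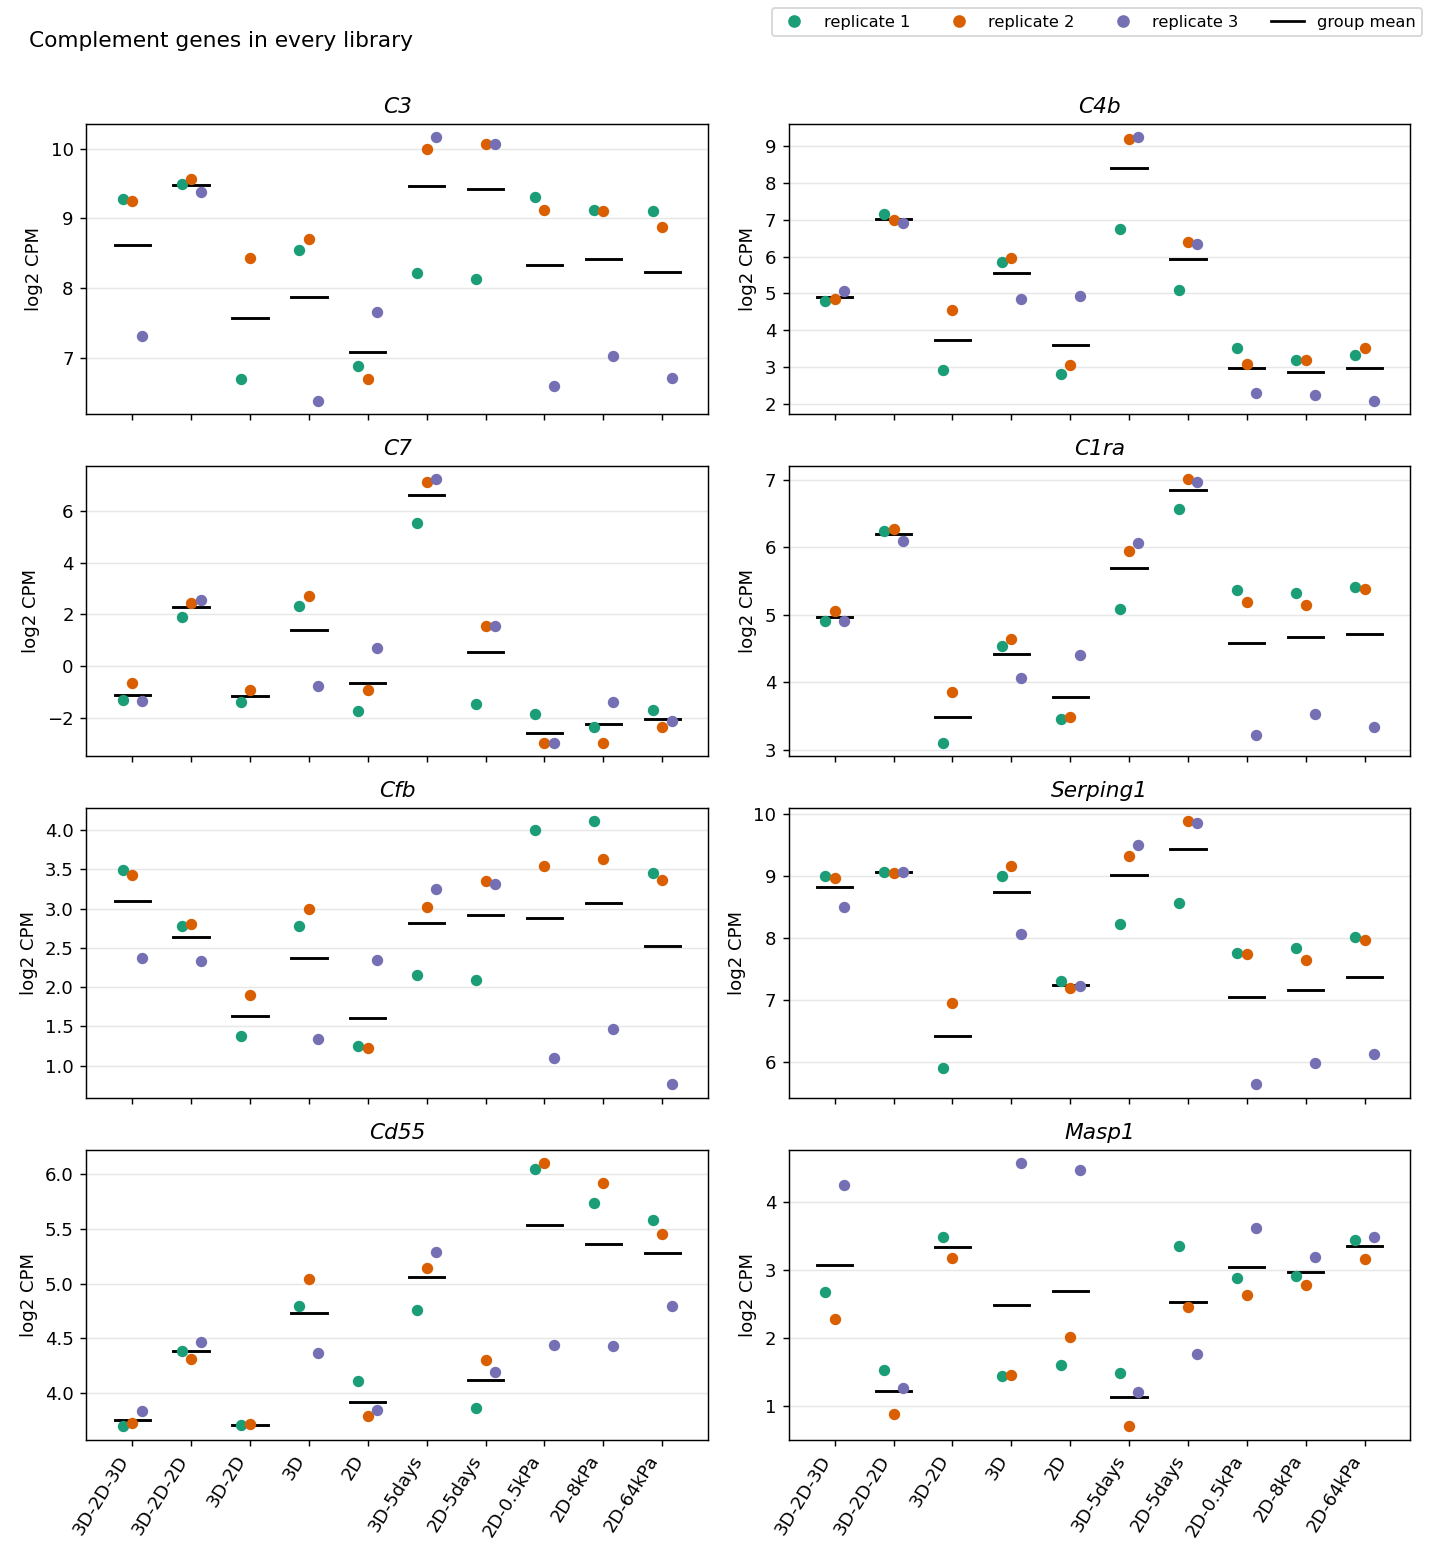
Level of each of the 8 genes in every library, as log2 CPM (y axis, its own range per gene) by group (x axis). Points are libraries coloured by replicate number and lines are group means; C7 reaches its highest levels in the 3 libraries of 3D-5days, and replicate 3 lies apart from replicates 1 and 2 in several groups.

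C1ra encodes the protease C1r of the classical pathway and lies on chromosome 6 at 124512621-124523440 (mm10). Its mean was highest in 2D-5days, with 94.7, 129 and 124 CPM in replicates 1, 2 and 3, followed by 3D-2D-2D with 75.5, 77.2 and 68.2 CPM and 3D-5days with 33.8, 61.3 and 66.8 CPM. These are the neighbours in its order whose libraries did not overlap, and the remaining 7 of 9 neighbouring pairs did. It had 30.0, 33.1 and 30.0 CPM in 3D-2D-3D, 8.52 and 14.3 CPM in 3D-2D, 23.2, 24.9 and 16.7 CPM in 3D, and 10.9, 11.1 and 21.0 CPM in 2D. On the substrates, replicates 1 and 2 had between 35.4 and 42.5 CPM and replicate 3 had 9.18 to 11.4 CPM, so a substrate library was placed by its replicate number more than by its stiffness. C1s1, the gene of the partner protease C1s, was among the 3 genes most like C1ra over the 10 group means of log2 CPM (Pearson r = 0.97). Over the 29 libraries r was 0.96, and the ratio of C1ra to C1s1 CPM stayed between 0.817 and 1.90. The near copy C1rb had 31 reads in all libraries against 15964 of C1ra, or 0.194% of the sum. Reads not uniquely aligned stand in a summary line apart from the gene counts. This share, like those of the near copies named below, thus covers unique reads only and does not show how much a copy was expressed.

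C4b encodes complement C4, which is cut by C1s or the MASP proteases and forms part of the C3 convertase (chromosome 17, 34728139-34743902). It was highest in 3D-5days, at 107, 586 and 610 CPM in replicates 1, 2 and 3, against 34.0, 84.1 and 81.0 CPM in 2D-5days. The 3D-5days libraries lay above all of 2D-5days. In 3D-2D-2D it had 143, 128 and 121 CPM, above replicate 1 of 3D-5days and far below replicates 2 and 3. It had 27.5, 28.8 and 33.3 CPM in 3D-2D-3D, 7.35 and 23.1 CPM in 3D-2D, 57.9, 61.8 and 28.5 CPM in 3D, and 6.90, 8.12 and 30.2 CPM in 2D. In 3D and 2D the replicates 1 and 2 were far apart, and the replicates 3 nearly met. The substrate libraries held 4.11 to 11.4 CPM, and the group means of C4b differed 57.9-fold between 3D-5days and 2D-8kPa. The near copy C4a had 285 reads in all libraries against 28239 of C4b, or 0.999% of the sum.

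Masp1 encodes the lectin pathway protease MASP-1 and, by alternative splicing, MASP-3, which a count per gene does not separate (chromosome 16, 23451785-23521240, where Rtp4 and Gm49514 overlap it). How reads from these overlaps were counted is not known. It reached 23.7 CPM in replicate 3 of 3D and 22.0 CPM in replicate 3 of 2D, against 2.59 and 2.63 CPM in the other 3D libraries and 2.91 and 3.94 CPM in the other 2D libraries. Replicate 3 of 3D-2D-3D had 19.0 CPM, with 6.28 and 4.72 CPM in replicates 1 and 2. Masp1 thus stood highest in replicate 3 of each of these 3 groups, whatever the arrangement. It had 2.78, 1.71 and 2.27 CPM in 3D-2D-2D, 11.2 and 8.98 CPM in 3D-2D, 2.67, 1.50 and 2.19 CPM in 3D-5days, and 10.2, 5.40 and 3.28 CPM in 2D-5days. The substrates held 6.09 to 12.1 CPM.

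Cfb encodes factor B, the protease subunit of the alternative pathway convertase (chromosome 17, 34856374-34862514, with C2 and Nelfe within 1 kb). Its group means spanned only 3.51-fold, and all 9 neighbouring pairs in its order overlapped. It had 11.1, 10.6 and 5.06 CPM in 3D-2D-3D, 6.74, 6.86 and 4.91 CPM in 3D-2D-2D, 2.46 and 3.61 CPM in 3D-2D, 6.75, 7.83 and 2.39 CPM in 3D, and 2.25, 2.21 and 4.96 CPM in 2D. It had 4.34, 8.01 and 9.35 CPM in 3D-5days and 4.14, 10.0 and 9.83 CPM in 2D-5days, nearly the same values by replicate number. On the substrates, replicates 1 and 2 had 10.2 to 17.2 CPM and replicate 3 had 1.57 to 2.63 CPM.

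C3 encodes the protein at which the pathways meet (chromosome 17, 57203967-57228136). Its levels at 5 days were close in both arrangements, 297, 1024 and 1147 CPM in 3D-5days and 282, 1068 and 1066 CPM in 2D-5days. The low value was replicate 1 in each arrangement. It had 621, 610 and 159 CPM in 3D-2D-3D, 718, 754 and 665 CPM in 3D-2D-2D, 104 and 347 CPM in 3D-2D, 373, 416 and 83.9 CPM in 3D, and 118, 104 and 202 CPM in 2D. Replicate 3 was the lowest library of 3D-2D-3D and of 3D but the highest of 2D. The substrates had 632, 557 and 96.5 CPM at 0.5 kPa, 556, 553 and 131 CPM at 8 kPa and 553, 468 and 105 CPM at 64 kPa, again low in replicate 3. Of the 9 neighbouring pairs in its order of means, 8 overlapped.

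C7 encodes a terminal component that joins the forming membrane attack complex (chromosome 15, 4987750-5063773). It had 47.0, 138 and 152 CPM in 3D-5days (423, 1659 and 1524 counts), against 0.236, 2.83 and 2.83 CPM in 2D-5days (2, 22 and 25 counts). No library of another group came near: the next group, 3D-2D-2D, had 3.62, 5.27 and 5.73 CPM. Among the rest, 3D-2D-3D had 0.273, 0.499 and 0.258 CPM (8, 11 and 8 counts), 3D-2D had 0.251 and 0.401 CPM (6 and 8 counts), 3D had 4.88, 6.35 and 0.451 CPM (96, 133 and 13 counts), and 2D had 0.166, 0.394 and 1.50 CPM (2, 5 and 42 counts). Replicate 3 of 2D exceeded replicate 3 of 3D, while the other 3D libraries exceeded every 2D library. The substrates held 0 to 3 counts of C7 per library, so no fold is given among them, and a count of 0 in 3 of those libraries allows up to 0.201, 0.316 and 0.181 CPM (3 counts, counting error only).

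Serping1 encodes C1 inhibitor, which blocks C1r, C1s and the MASP proteases (chromosome 2, 84765360-84775444). It had 513, 499 and 362 CPM in 3D-2D-3D, 536, 530 and 537 CPM in 3D-2D-2D, 60.0 and 123 CPM in 3D-2D, 512, 575 and 268 CPM in 3D, and 158, 147 and 149 CPM in 2D. The 3D-2D and 2D libraries lay below all libraries of the other 3 of these groups. It had 298, 641 and 720 CPM in 3D-5days and 379, 944 and 924 CPM in 2D-5days. The substrates had 217 and 215 CPM at 0.5 kPa, 229 and 199.6 CPM at 8 kPa and 258 and 252 CPM at 64 kPa in replicates 1 and 2, and 49.8, 63.2 and 69.7 CPM in the replicates 3.

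Cd55 encodes decay-accelerating factor, a membrane regulator that takes C3 convertases apart (chromosome 1, 130429798-130465009). The antisense gene Cd55os overlaps it, and since the strand setting of the counting is not given in the sources used here, their reads cannot be told apart. Cd55 was highest on the substrates, with 66.2, 68.6 and 21.6 CPM at 0.5 kPa, 53.1, 60.3 and 21.4 CPM at 8 kPa, and 47.9, 43.8 and 27.6 CPM at 64 kPa. Replicates 1 and 2 of the substrates exceeded every library of the other groups, and replicate 3 did not. It had 12.8, 13.1 and 14.1 CPM in 3D-2D-3D, 20.8, 19.7 and 22.0 CPM in 3D-2D-2D, 12.9 and 13.0 CPM in 3D-2D, 27.6, 32.8 and 20.5 CPM in 3D, and 17.1, 13.7 and 14.3 CPM in 2D. At 5 days it had 26.9, 35.1 and 39.1 CPM in 3D-5days and 14.4, 19.7 and 18.2 CPM in 2D-5days. Every 3D and 3D-5days library was above every library of its 2D counterpart. Cd55b, a near copy, had 17 reads against 12089 of Cd55, or 0.140% of the sum.

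At 5 days, C7, C4b and Cd55 were called higher in 3D-5days than in 2D-5days in the fit of all libraries, and 0 of the 8 genes were called lower. With the replicate number added as a block to a fit of the 5-day groups alone, C1ra, Masp1 and Serping1 were called lower, as given below. With edgeR's quasi-likelihood test and Benjamini-Hochberg adjustment over all genes, C7 was higher by a log2 fold change of 5.84 ± 0.78 (SE; 57.2-fold, adjusted p = 5.38e-06, n = 3 libraries each), with means of 112 ± 56.9 CPM in 3D-5days and 1.96 ± 1.50 CPM in 2D-5days (SD). C4b was higher by 2.71 ± 0.61 (6.55-fold, adjusted p = 0.00151) and Cd55 by 0.95 ± 0.35 (1.94-fold, adjusted p = 0.0396). Of all genes tested, 14.9% were called higher, 17.5% lower and 32.4% in either direction. C1ra differed by -1.10 ± 0.49 (adjusted p = 0.0927), Masp1 by -1.58 ± 0.84 (0.164), Serping1 by -0.44 ± 0.54 (0.574), Cfb by -0.14 ± 0.70 (0.905) and C3 by 0.03 ± 0.77 (0.984). For C3 the interval of plus and minus 2 SE was -1.52 to 1.58, which holds differences in either direction. Libraries did not overlap for 5 of the 8 genes (C4b, C7, C1ra, Cd55 and Masp1), against 40.4% of all genes. By replicate number C7 differed by 7.02, 5.55 and 5.68, C4b by 1.65, 2.80 and 2.91, and Cd55 by 0.89, 0.83 and 1.10 log2 units. C1ra differed by -1.48, -1.07 and -0.90, Masp1 by -1.88, -1.76 and -0.56, and Serping1 by -0.34, -0.56 and -0.36, while C3 and Cfb went both ways.

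C7 and C4b kept their call in all 15 alternative settings run for this comparison, at 5.31 to 6.24 for C7 and 2.39 to 3.17 for C4b. Cd55 lost its call without any single 2D-5days library and without 3D-5days replicate 2 or 3 (adjusted p = 0.0626 to 0.118). In a fit of the 5-day groups alone, C1ra (log2 fold change -1.06, adjusted p = 0.0258) and Masp1 (-1.54, 0.0482) were also called, lower in 3D-5days. With the replicate number added to that fit as a block, 6 genes were called, with C1ra (-1.10, 4.10e-05), Masp1 (-1.47, 0.00263) and Serping1 (-0.39, 0.00840) lower in 3D-5days. The 20 macrophage markers summed to 14751, 3883 and 4644 CPM in 3D-5days and 3776, 892 and 890 CPM in 2D-5days. All of the 8 genes but Masp1 were lowest in replicate 1 of each arrangement, the replicate with the most macrophage signal. The fibroblast markers were lowest in sum there too, at 27882 CPM in 3D-5days and 37980 CPM in 2D-5days. The 10 endothelial markers summed to 106 to 123 CPM in 3D-5days and 35.7 to 36.2 CPM in 2D-5days, with 8 called higher, and the 9 epicardial and mesothelial markers to 0.298 to 1.78 CPM in 3D-5days (Msln, Upk3b, Upk1b and Gpm6a at 0) and 27.9 to 38.3 CPM in 2D-5days. The 8 mural markers summed to 82.7 to 89.9 CPM in 3D-5days and 346 to 423 CPM in 2D-5days, with 2 of 7 tested called higher and 3 lower. Dendritic cell and neutrophil markers (36.0 to 193 CPM in 3D-5days and 6.81 to 24.2 CPM in 2D-5days), Schwann cell markers (7.67 to 9.55 CPM in 3D-5days and 3.31 to 5.31 CPM in 2D-5days) and cardiomyocyte markers (32.3 to 34.9 CPM in 3D-5days and 26.9 to 30.4 CPM in 2D-5days) were higher in sum in every 3D-5days library. Of 5 cardiomyocyte markers tested, 2 had a positive log2 fold change, with 0 called higher and 1 called lower. The part of all these cell types in the C7, C4b and Cd55 results was not tested.

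**Figure D2:**
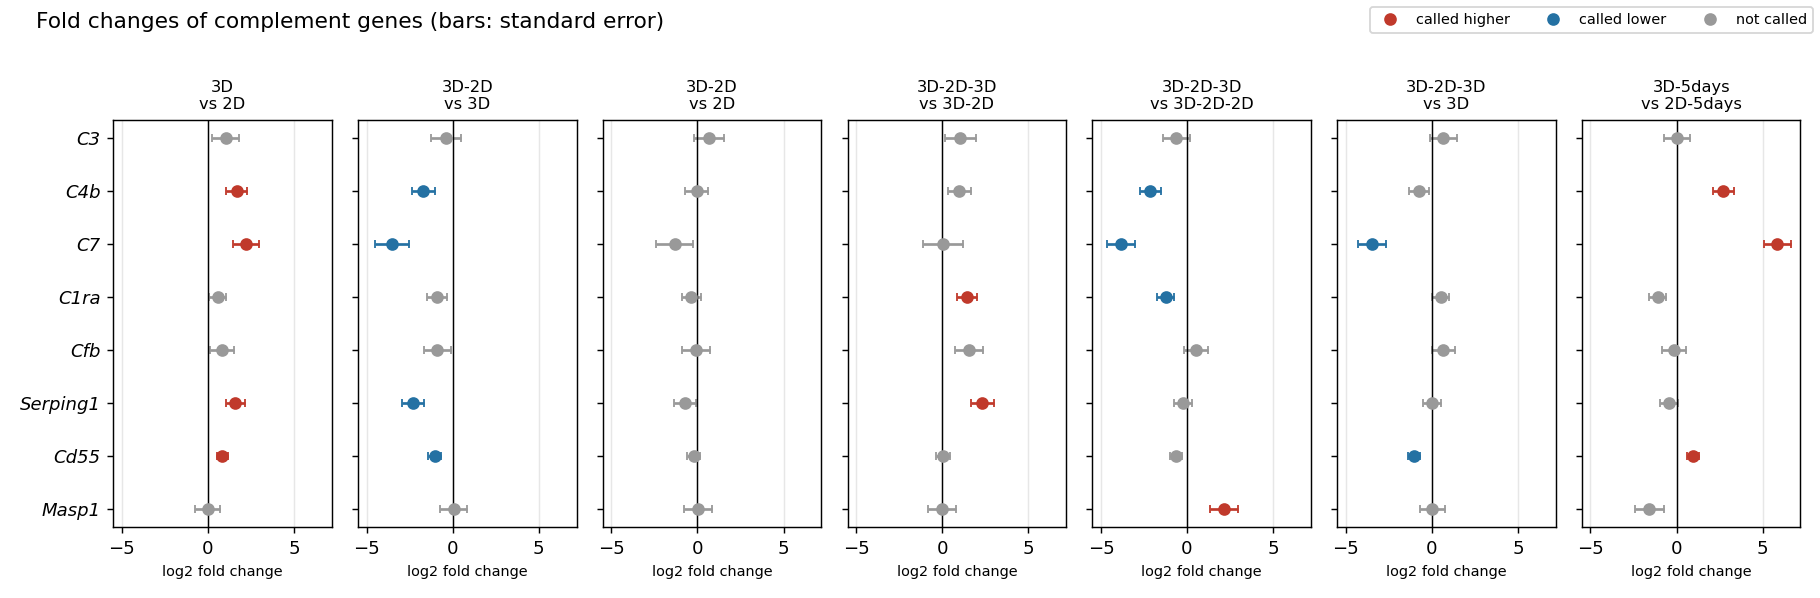
Log2 fold change (x axis) of each gene (y axis) in the 7 comparisons between arrangements, the group named at the top of a panel over the group under it. Points are edgeR estimates with standard errors, red where called higher, blue where called lower and grey where not called; C7 at 5 days lies farthest right at 5.84, and C7 in 3D-2D-3D over 3D-2D-2D farthest left at -3.83.

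In the cultures with no stated time, C4b, C7, Serping1 and Cd55 were called higher in 3D than in 2D in the fit of all libraries, and 0 of the 8 genes were called lower. Serping1 averaged 452 ± 162 CPM in 3D and 151 ± 5.80 CPM in 2D (SD, n = 3 each), a log2 fold change of 1.58 ± 0.55 (adjusted p = 0.0194). Cd55 averaged 27.0 ± 6.13 CPM in 3D and 15.0 ± 1.83 CPM in 2D, 0.84 ± 0.34 (0.0409). C4b was higher by 1.67 ± 0.60 (0.0226) and C7 by 2.23 ± 0.76 (0.0169). Of all genes, 26.7% were called higher, 27.3% lower and 54.0% in either direction. C3 differed by 1.04 ± 0.78 (0.272), Cfb by 0.80 ± 0.70 (0.347), C1ra by 0.57 ± 0.50 (0.346) and Masp1 by -0.02 ± 0.72 (0.985). Only Serping1 and Cd55 had libraries that did not overlap, 2 of 8 against 56.3% of all genes.

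Replicate 3 went against the others. By replicate number, C4b differed by 3.04, 2.91 and -0.08 log2 units, C7 by 4.09, 3.63 and -1.49, C3 by 1.66, 1.99 and -1.26, Cfb by 1.54, 1.77 and -1.01, and C1ra by 1.08, 1.15 and -0.33. Serping1 (1.70, 1.97 and 0.84) and Cd55 (0.68, 1.25 and 0.52) were higher in 3D in all 3. Within replicates 1 and 2, C4b was higher by 2.99 and C7 by 4.27, while within replicate 3 C4b was at -0.06 (adjusted p = 0.969) and C7 at -1.69 (0.229). In a fit of 3D and 2D alone, 2 genes were called, Serping1 and Cd55, and C4b (1.70, 0.0823) and C7 (2.37, 0.137) were not. With the replicate number added to that fit as a block, the same 2 genes were called (C4b 2.01, 0.139; C7 2.19, 0.357). Leaving out replicate 2 of 3D or of 2D ended all 4 calls (adjusted p = 0.0540 to 0.139). Without 2D replicate 1 the calls of C4b, C7 and Cd55 were lost, without 3D replicate 1 those of C4b and Cd55, and without 2D replicate 3 those of Serping1 and Cd55 (0.0503 to 0.0979). Without 3D replicate 3, Masp1 was called lower in 3D (-1.93, 0.0240). The macrophage markers summed to 11132, 7823 and 279 CPM in 3D and 1636, 1729 and 1896 CPM in 2D, so replicate 3 of 3D had the least and its 3D partners the most. All of the 8 genes but Masp1 were lowest in replicate 3 of 3D too. Other marker sums did not overlap: epicardial and mesothelial markers had 3.91 to 12.5 CPM in 3D and 28.1 to 30.1 CPM in 2D, cardiomyocyte markers 66.9 to 208 CPM in 3D and 10.2 to 25.4 CPM in 2D, and Schwann cell markers 8.45 to 14.02 CPM in 3D and 1.93 to 3.66 CPM in 2D. The part of these cell types in the result was not tested.

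**Figure D3:**
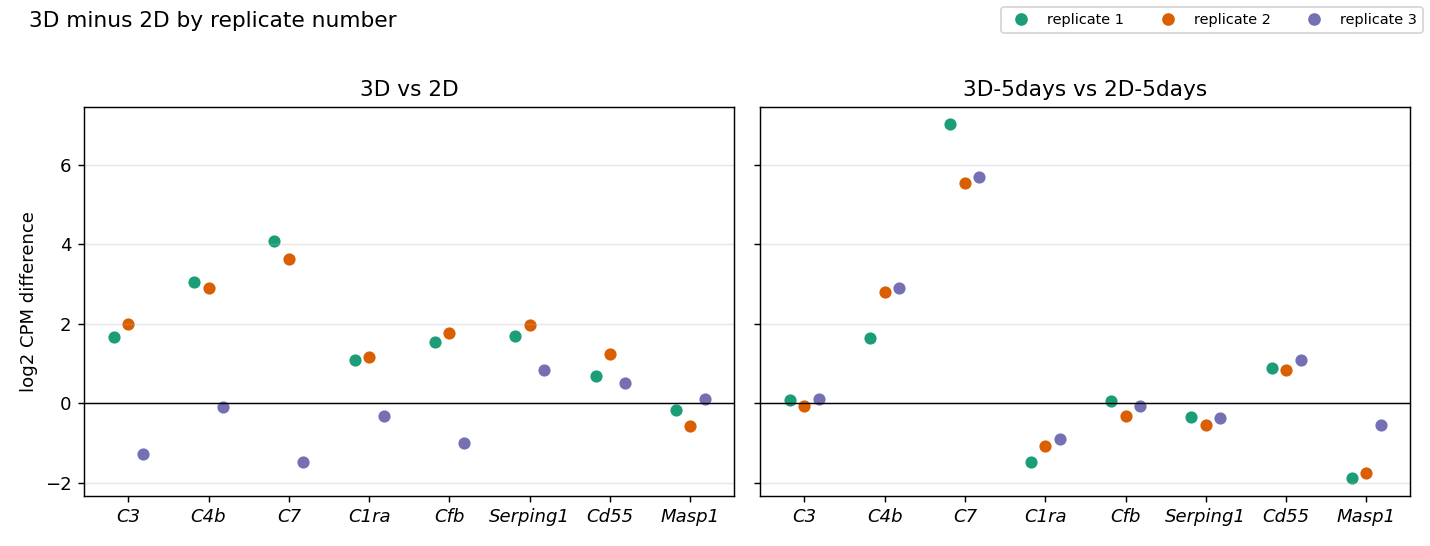
Difference in log2 CPM, 3D minus 2D, of same-numbered libraries (y axis) for each gene (x axis), with no stated time (left) and at 5 days (right). Points are replicates; on the left replicate 3 is below 0 for C3, C4b, C7, C1ra and Cfb while replicates 1 and 2 are above, and on the right C7 and C4b are above 0 in all 3 replicates.

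The 3D effect on C7 was larger at 5 days than with no stated time, by 3.61 ± 1.07 log2 units in a test of the difference itself (adjusted p = 0.0165), and 1 of 8 genes was called against 25.5% of all genes (12.3% higher, 13.2% lower). Serping1 (-2.02 ± 0.77, 0.0572), C1ra (-1.67 ± 0.70, 0.0849), Masp1 (-1.56 ± 1.11, 0.329), C3 (-1.01 ± 1.10, 0.553), C4b (1.04 ± 0.82, 0.385), Cfb (-0.94 ± 0.99, 0.537) and Cd55 (0.11 ± 0.48, 0.906) were not called. The C7 value rested on replicate 3 of 2D: without that library it was 2.12 (0.376). With replicates 2 and 3 at 5 days and replicates 1 and 2 of 3D and 2D it was 1.40 (0.182), and with the most alike libraries summed 4.08 (0.0900). A fit of these 4 groups alone called other genes: C7 was not called (3.61, 0.118), while C1ra (-1.68, 0.0254) and Serping1 (-2.02, 0.0411) were. With a replicate block in that fit C7 was at 4.18 (0.131), C1ra at -1.77 (0.0323) and Serping1 at -1.93 (0.00509), and DESeq2 over all libraries called C1ra (-1.70, 0.0481) and Serping1 (-2.03, 0.0237) beside C7. Masp1 was called without 2D replicate 3 (-3.08, 0.0375), and Serping1 without 2D-5days replicate 1 (-2.33, 0.0294) or 3D replicate 3 (-2.24, 0.0440).

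After 3D cells had been moved to 2D, the same 4 genes were lower in 3D-2D than in 3D. C7 averaged 0.326 ± 0.107 CPM in 3D-2D (n = 2) and 3.89 ± 3.07 CPM in 3D (n = 3; SD), a log2 fold change of -3.54 ± 0.99 (adjusted p = 0.00442, edgeR). Serping1 averaged 91.6 ± 44.7 CPM in 3D-2D and 452 ± 162 CPM in 3D (-2.30 ± 0.66, 0.00531). C4b differed by -1.70 ± 0.69 (0.0405) and Cd55 by -1.06 ± 0.39 (0.0250). C1ra (-0.92 ± 0.57, 0.177), Cfb (-0.89 ± 0.79, 0.349), C3 (-0.37 ± 0.87, 0.740) and Masp1 (0.05 ± 0.80, 0.964) were not called. Of all genes, 27.7% were called lower, 28.8% higher and 56.5% in either direction, and libraries did not overlap for 5 of the 8 genes against 70.6% of all genes. This comparison and the previous one share the 3D libraries, so the 4 genes recurring in them is not separate evidence. All 4 calls were lost without 3D-2D replicate 1 (0.0551 to 0.306), that of C4b without 3D replicate 1 (0.0797), those of C4b (0.0923) and Cd55 (0.0780) without 3D replicate 2, and that of Cd55 without 3D-2D replicate 2 (0.110), where C4b was at -2.74. In a fit of these groups alone C4b (-1.71, 0.0773) and C7 (-3.57, 0.0730) were not called. Against replicate 3 of 3D alone, a single library that was given the spread of the other groups, 0 of the 4 calls remained and C7 was at -0.50. Masp1 was called higher in 3D-2D without 3D replicate 3 (1.95, 0.0276) and was at -1.26 against that library alone. Fibroblast markers summed to 19156 to 19314 CPM in 3D-2D and 22922 to 36704 CPM in 3D, with 5 of 10 called lower and 1 called higher. Macrophage markers summed to 788 to 1074 CPM in 3D-2D, and endothelial ones to 14.2 to 19.9 CPM in 3D-2D and 38.4 to 104 CPM in 3D. Mural markers had 46.1 to 49.7 CPM in 3D-2D and 95.98 to 170 CPM in 3D, cardiomyocyte markers 19.2 to 19.7 CPM in 3D-2D and 66.9 to 208 CPM in 3D, Schwann cell markers 1.92 to 2.26 CPM in 3D-2D and 8.45 to 14.02 CPM in 3D, and epicardial and mesothelial markers 45.1 to 50.8 CPM in 3D-2D and 3.91 to 12.5 CPM in 3D. Their part was not tested.

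Between 3D-2D and 2D, 0 of the 8 genes were called, against 14.4% of all genes (6.85% higher, 7.54% lower), and libraries did not overlap for 2 of 8, Serping1 and Cd55, against 52.1% of all genes. The count was also 0 at an unadjusted p under 0.05 in edgeR and 0 with DESeq2. The largest estimates were C7 at -1.32 ± 1.09 (adjusted p = 0.443) and Serping1 at -0.72 ± 0.61 (0.458), and C4b (-0.03 ± 0.66) was close to 0 with an interval of -1.36 to 1.29, which leaves room for sizable differences in either direction. Within replicates 1 and 2 Masp1 was called higher in 3D-2D, at 1.53 (0.00546). Macrophage markers summed to 788 to 1074 CPM in 3D-2D and 1636 to 1896 CPM in 2D. Endothelial markers had 14.2 to 19.9 CPM in 3D-2D and 38.6 to 49.9 CPM in 2D. Mural markers had 46.1 to 49.7 CPM in 3D-2D and 79.2 to 126 CPM in 2D. Epicardial and mesothelial markers had 45.1 to 50.8 CPM in 3D-2D and 28.1 to 30.1 CPM in 2D. Fibroblast marker sums overlapped, and the part of these cell types was not tested.

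When 3D-2D cells were returned to 3D, Serping1 and C1ra rose. Serping1 averaged 458 ± 83.8 CPM in 3D-2D-3D (n = 3) and 91.6 ± 44.7 CPM in 3D-2D (n = 2; SD), a log2 fold change of 2.32 ± 0.66 (adjusted p = 0.00570). C1ra averaged 31.1 ± 1.80 CPM in 3D-2D-3D and 11.4 ± 4.12 CPM in 3D-2D (1.44 ± 0.58, 0.0432). Of all genes, 24.2% were called higher, 25.0% lower and 49.2% in either direction. Cfb (1.56 ± 0.80, 0.114), C3 (1.04 ± 0.90, 0.349), C4b (0.98 ± 0.67, 0.237), C7 (0.05 ± 1.17, 0.976), Cd55 (0.04 ± 0.38, 0.936) and Masp1 (-0.01 ± 0.80, 0.996) were not called, and 4 of 8 genes had libraries that did not overlap, against 76.1% of all genes. C1ra lost its call without any single library of these groups (0.0664 to 0.270), and Serping1 lost it without 3D-2D replicate 1 (1.88, 0.0916). Macrophage markers were lower in sum, 291 to 324 CPM in 3D-2D-3D and 788 to 1074 CPM in 3D-2D, and 0 of 20 were called. Mural markers summed to 222 to 297 CPM in 3D-2D-3D and 46.1 to 49.7 CPM in 3D-2D, endothelial markers to 27.1 to 38.1 CPM in 3D-2D-3D and 14.2 to 19.9 CPM in 3D-2D, and epicardial and mesothelial markers to 7.10 to 20.6 CPM in 3D-2D-3D and 45.1 to 50.8 CPM in 3D-2D. Cardiomyocyte markers (33.3 to 166 CPM in 3D-2D-3D and 19.2 to 19.7 CPM in 3D-2D) and Schwann cell markers (8.68 to 12.4 CPM in 3D-2D-3D and 1.92 to 2.26 CPM in 3D-2D) did not overlap either. Their part in the result was not tested.

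The returned 3D state differed from continued 2D in 4 genes. C7, C4b and C1ra were lower and Masp1 was higher in 3D-2D-3D than in 3D-2D-2D. C7 averaged 0.343 ± 0.135 CPM in 3D-2D-3D and 4.87 ± 1.11 CPM in 3D-2D-2D (SD, n = 3 each), a log2 fold change of -3.83 ± 0.83 (adjusted p = 0.000790), and this call held in all 16 alternative settings run (-4.18 to -3.61). C4b averaged 29.9 ± 3.07 CPM in 3D-2D-3D and 131 ± 11.2 CPM in 3D-2D-2D (-2.13 ± 0.60, 0.00657). C1ra differed by -1.25 ± 0.49 (0.0476) and Masp1 by 2.13 ± 0.81 (0.0397). Of all genes, 19.8% were called higher, 20.6% lower and 40.4% in either direction, and libraries did not overlap for 7 of the 8 genes, all but Cfb, against 63.7% of all genes. The direction of C7 and C4b was the opposite of that at 5 days, where they were higher in 3D. Serping1 (-0.22 ± 0.54, 0.773), C3 (-0.62 ± 0.78, 0.559), Cd55 (-0.64 ± 0.34, 0.141) and Cfb (0.53 ± 0.69, 0.572) were not called.

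C1ra lost its call without any single library of 3D-2D-3D and 3D-2D-2D (adjusted p = 0.0729 to 0.112), and Masp1 without any 3D-2D-2D library (0.0740 to 0.111) and without 3D-2D-3D replicate 3, where its value was 1.28 (0.246). The Xist and Y-linked reads divide these groups: replicates 1 and 2 of 3D-2D-3D held almost no Y-linked reads and all 3D-2D-2D libraries held both kinds. With replicate 3 as the only 3D-2D-3D library, which held both kinds and was given the spread of the other groups, C4b was at -1.97 and lost its call (0.120). C4b also lost it with the most alike libraries summed (-2.08, 0.0657). The fibroblast markers summed to 18152 to 24937 CPM in 3D-2D-3D and 68555 to 74666 CPM in 3D-2D-2D, the endothelial markers to 27.1 to 38.1 CPM in 3D-2D-3D and 75.0 to 79.7 CPM in 3D-2D-2D. The epicardial and mesothelial markers summed to 7.10 to 20.6 CPM in 3D-2D-3D and 83.9 to 89.1 CPM in 3D-2D-2D, and the mural markers to 222 to 297 CPM in 3D-2D-3D and 391 to 415 CPM in 3D-2D-2D. Macrophage markers had 291 to 324 CPM in 3D-2D-3D and 575 to 588 CPM in 3D-2D-2D, with 0 of 20 called. Dendritic cell and neutrophil markers had 13.8 to 21.5 CPM in 3D-2D-3D and 6.25 to 7.67 CPM in 3D-2D-2D, with 1 of 5 tested called higher. Their part in the result was not tested.

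Compared with the initial 3D state, C7 and Cd55 were lower in 3D-2D-3D. C7 averaged 0.343 ± 0.135 CPM in 3D-2D-3D and 3.89 ± 3.07 CPM in 3D (SD, n = 3 each; log2 fold change -3.49 ± 0.81, adjusted p = 0.00364), though replicate 3 of 3D (0.451 CPM) lay among the 3D-2D-3D libraries. With replicate 3 as the only library of each group C7 was at -0.79. In a fit of these groups alone the C7 call was lost at a like fold (-3.56, 0.0699), and with a replicate block in that fit it was at -3.15 (0.0717). Cd55 averaged 13.3 ± 0.691 CPM in 3D-2D-3D and 27.0 ± 6.13 CPM in 3D (-1.01 ± 0.34, 0.0340), and its call was lost without any 3D-2D-3D library or without 3D replicate 1 or 2 (0.0624 to 0.135). Of all genes, 11.8% were called lower, 11.2% higher and 23.0% in either direction. Serping1 had an estimate of 0.02 ± 0.53 (0.987) with an interval of -1.05 to 1.09. C3 was at 0.67 ± 0.78 (0.596), and with that block it was called higher in 3D-2D-3D (0.70, 0.0343). C4b (-0.72 ± 0.58, 0.409), C1ra (0.53 ± 0.49, 0.489), Cfb (0.66 ± 0.67, 0.534) and Masp1 (0.04 ± 0.71, 0.977) were not called, although Masp1 was without 3D replicate 3 (1.93, 0.0390). Libraries did not overlap for 2 of 8 genes, C1ra and Cd55, against 36.4% of all genes. Macrophage markers were lower in 3D-2D-3D, 19 of 20 by the test, at 291 to 324 CPM in 3D-2D-3D and 279 to 11132 CPM in 3D. Mural markers had 222 to 297 CPM in 3D-2D-3D and 95.98 to 170 CPM in 3D, and endothelial markers 27.1 to 38.1 CPM in 3D-2D-3D and 38.4 to 104 CPM in 3D. Of 7 mural markers tested, only 2 had a positive log2 fold change, with 1 called higher, 0 called lower and a median of -0.83. The part of these cell types was not tested.

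Among the substrates of 0.5, 8 and 64 kPa, 0 of the 8 genes were called in any of the 3 comparisons, and 0 of all genes tested. DESeq2 called 0 genes too, and at an unadjusted p under 0.05 edgeR gave 0 of the 8 genes and 82 of all genes for 8 over 0.5 kPa, 0 and 175 for 64 over 0.5 kPa, and 0 and 241 for 64 over 8 kPa. Libraries did not overlap for 0 of the 8 genes, against 3.61%, 5.05% and 7.47% of all genes. Cd55 differed by -0.39 ± 0.33 between 64 and 0.5 kPa, with an interval of -1.06 to 0.27, and C3 by -0.19 ± 0.78, with an interval of -1.74 to 1.36. The spread within a group came mainly from replicate 3: at 0.5 kPa, Serping1 had a mean of 160 ± 95.8 CPM and C1ra of 28.9 ± 17.2 CPM (SD, n = 3). With the replicate number as a block, Serping1 was called higher at 64 than at 8 kPa, by 0.23 (adjusted p = 0.0198), with 608 of all genes called. By replicate number it was higher in 3 of 3 pairs, by 0.17, 0.33 and 0.14 log2 units. The macrophage markers summed to 3233, 3208 and 718 CPM at 64 kPa and 1920, 1707 and 507 CPM at 8 kPa in replicates 1, 2 and 3, with a median log2 fold change of 0.80 and 0 of 20 called, and their part was not tested.

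Over the 10 group means of log2 CPM the genes formed several patterns. C4b and C7 had a Pearson r of 0.95 and C3 and C1ra of 0.93, while Masp1 ran against C4b (-0.89) and C7 (-0.90). Cd55 was near 0 with C7 (-0.03), C1ra (0.07) and Masp1 (-0.06), and Cfb with C7 (0.07). These are descriptions over 10 points that share their libraries. Among 13159 genes compared, those most like each member were Wdr60, Keap1 and Ankzf1 for C3 (highest r 0.96), Nfasc, Emc10 and Irx3 for C4b (0.99), Gsn, Cc2d1b and Maoa for C7 (0.98), Grik5, C1s1 and Tns2 for C1ra (0.97), Serpina3f, Rom1 and Glyr1 for Cfb (0.94), Pnisr and Aldh1l1 for Serping1 (0.99), Ptgr1, Wdyhv1 and Retsat for Cd55 (0.97), and Slc35d1, Glmn and Wdr37 for Masp1 (0.94).

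**Figure D4:**
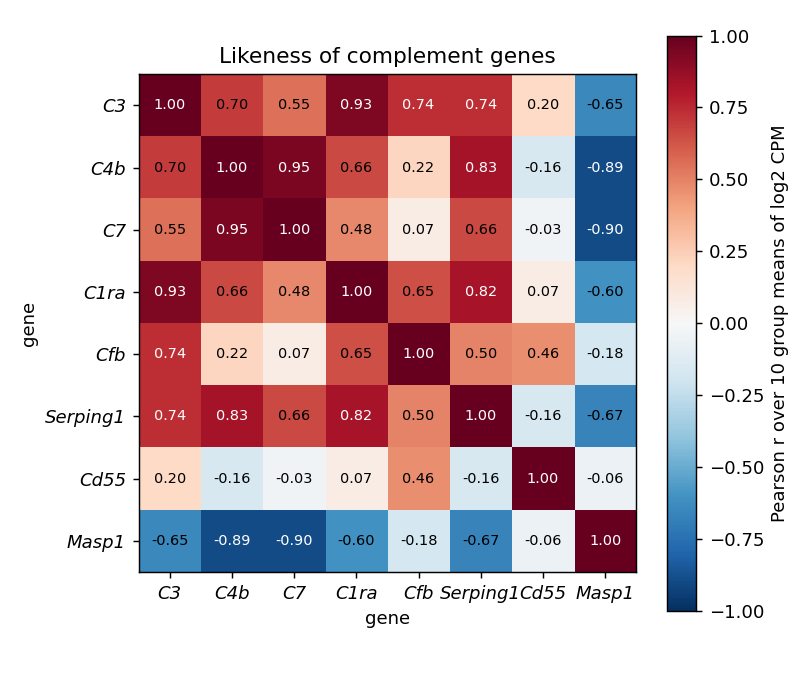
Pearson r between complement genes (both axes) over the 10 group means of log2 CPM, with the value in each cell. Red marks positive and blue negative r; C4b and C7 share the highest value off the diagonal, 0.95, and Masp1 has a negative r with each of the other genes.

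The other complement genes were counted beside these 8. A list of 55 further names had 50 in the table, of which 31 were tested. In 3D relative to 2D, 15 of the 31 rose and 2 fell, against 26.7% and 27.3% of all genes, with a median log2 fold change of 1.32 against 0.03 over all genes. Libraries did not overlap for 11 of the 31, against 56.3% of all genes. The 31 include genes of myeloid cells and genes with few counts, so these figures do not describe fibroblasts alone. Clu, clusterin, which binds terminal complexes, averaged 126 ± 30.0 CPM in 3D and 20.2 ± 16.7 CPM in 2D (2.61 ± 0.59, adjusted p = 0.000853). Colec12, a membrane collectin, rose by 1.88 ± 0.25 (2.32e-06), and C1qbp, which binds C1q and resides mainly in mitochondria, fell by 0.34 on the log2 scale (0.00472). The rises of Itgb2 (1.91 ± 0.73) and Itgam (2.27 ± 0.92), the chains of complement receptor 3 on myeloid cells, had overlapping libraries and stood beside the macrophage marker sums given above.

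At 5 days 7 of the 31 rose and 3 fell in 3D-5days, against 14.9% and 17.5% of all genes, with a median of 0.70. Clu averaged 139 ± 73.8 CPM in 3D-5days and 32.4 ± 8.55 CPM in 2D-5days (2.10 ± 0.59, adjusted p = 0.00854), and C2, the classical protease partner of C4, 15.3 ± 4.96 CPM in 3D-5days and 6.18 ± 3.14 CPM in 2D-5days (1.31 ± 0.44, 0.0242). C1rl, a C1r-like protease, fell by 0.72 on the log2 scale (0.0105). Itgb2 (2.45 ± 0.75) and Itgax (3.71 ± 0.93), myeloid integrin chains, rose as well. In 3D-2D relative to 3D, 2 of the 31 rose and 19 fell, against 28.8% and 27.7% of all genes (median -2.13). Those that fell included C1qb, C1qc and Itgam, which are among the 20 macrophage markers, and Clu and Colec12, which are not. In 3D-2D relative to 2D, C1qbp rose (0.43 ± 0.11).

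In 3D-2D-3D relative to 3D-2D, 9 of the 31 rose, a share near the 24.2% of all genes, and 4 fell, against 25.0%. C1s1 was at 28.2 ± 7.69 CPM in 3D-2D-3D and 7.19 ± 3.73 CPM in 3D-2D (1.98 ± 0.73, adjusted p = 0.0298). In 3D-2D-3D relative to 3D-2D-2D, 5 of the 31 rose and 4 fell, smaller shares than the 19.8% and 20.6% of all genes. Clu (2.05 ± 0.58, 0.00727) and Colec12 (1.23 ± 0.25, 0.000397) were higher, and the regulators Cd59a (-0.93 ± 0.18, 0.000227), which blocks the membrane attack complex, and Cr1l (-0.33 ± 0.10, 0.0101), a mouse membrane regulator of C3 and C4, were lower. In 3D-2D-3D relative to 3D, 0 of the 31 rose and 13 fell, against 11.2% and 11.8% of all genes. Those named by abundance, Itgb2, Itgam, C1qa, C1qb, C1qc and C3ar1, fell by 3.40 to 4.96 on the log2 scale, and their libraries overlapped between the groups. Itgam, C1qa, C1qb and C1qc are themselves among the 20 macrophage markers, so their fall is not separate from that of the marker sums. In 3D, Itgam ran from 8.40 to 581 CPM and C3ar1 from 7.01 to 388 CPM. Among the substrates 0 of the 31 were called.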

How the data were processed

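The authors deposited 1 table of raw counts of reads per gene, not normalized, with 24421 gene rows and 5 summary lines for 29 RNA libraries. The submitters' processing notes name TopHat, HTSeq, Bowtie and MACS2 and the mm10 build, with no version or role. For the annotation and the strand setting, the sources used here give nothing. The 2 ATAC-seq libraries were not analysed here. Reads not uniquely aligned were 14.0% to 28.4% of a library, reads outside genes 4.84% to 10.0%, and reads in more than 1 gene 0.881% to 1.06%; the summary lines entered no test.

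All libraries were fitted together in edgeR 4.0.16 (R 4.3.3, limma 3.58.1) with 1 mean per group, filterByExpr, TMM factors (0.868 to 1.10) and robust quasi-likelihood tests. P-values were adjusted by Benjamini-Hochberg over 14036 genes, and a gene was called at an adjusted p under 0.05. SE is the log2 fold change over the square root of F, and intervals are 2 SE wide on each side. Log2 CPM used a prior count of 2. Groups came from the labels. The script was tested on simulated data. The 8 genes, the gene lists and the comparisons were chosen with earlier results of these data known. Of the other complement genes, the text names up to 6 called per comparison, the most abundant over all libraries, and the copies C4a, C1rb and Cd55b. Genes most like a member are the 3 with the highest r. Some genes that these rules select are not reported here.

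Replicate numbers were taken as pairing libraries where, with 3 pairs, deviations from the group means correlated at over 0.1 in every pair. This held for 3D with 2D (0.141 to 0.232), 3D-2D-3D with 3D (0.196 to 0.300), the 5-day groups (0.288 to 0.572) and the substrates (0.191 to 0.753). DESeq2 1.42.0, other scalings and filters, subsets of libraries and the replicate block were run as alternatives. No label names a molecular identifier, so reads may not be independent molecules. Positions are those of RefSeq genes on GRCm38.p6, the assembly of mm10.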

Additional observations from a re-analysis of the deposited data

Results flagged for a closer look

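Results are given here where the 3D effect at 5 days was unlike that in cultures with no stated time, by edgeR's test of the difference itself over all libraries. Among the 8 genes this was C7, at 3.61 log2 units (adjusted p = 0.0165), but this call was lost without 2D replicate 3 (2.12, 0.376), with only the 4 groups compared (3.61, 0.118), with a replicate block in that fit (4.18, 0.131) and with the most alike libraries summed (4.08, 0.0900). C1ra and Serping1, not called in the fit of all libraries, were called with only the 4 groups, with and without the block, and with DESeq2. Among the other complement genes tested, the effect was lower at 5 days for Colec11, a lectin pathway collectin (-4.29, adjusted p = 0.000137), for C1rl (-1.59, 0.000439) and for Colec12 (-1.54, 0.00267), and higher for C1qbp (1.01, 2.16e-05). Colec11 averaged 0.294 ± 0.0418 CPM in 3D-5days and 6.31 ± 2.29 CPM in 2D-5days, against 0.848 ± 0.721 CPM in 3D and 0.940 ± 0.0988 CPM in 2D (SD, n = 3 each). Every 3D-5days library held 3 counts of Colec11, so its level there is limited by depth and the small SD reflects library totals only.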

How the results depend on the processing

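The 1382 alternative values covered genes called and not called in the main fit. Of these, 1248 kept their direction where called and their side of the threshold. Of the rest, 99 lost a call, 32 gained one, and 3 turned a direction. The 3 came from keeping only replicate 3 of 2D, 3D and 3D-2D-3D: C4b and C7 in 3D over 2D (-0.0646 and -1.69), and Masp1 in 3D-2D over 3D (-1.26). Values not called in either fit count as kept, so the share kept does not measure how firm the calls were, and 138 of them changed sign. Calls were kept in as many as 15 of 15 settings (C7 and C4b at 5 days) and as few as 5 of 16 (C1ra in 3D-2D-3D over 3D-2D-2D). The number of the 8 genes called moved as follows. Leaving out 1 library in turn gave 0 to 5 for 3D over 2D, 0 to 5 for 3D-2D over 3D, 0 to 1 for 3D-2D-3D over 3D-2D, 2 to 3 over 3D-2D-2D and 1 to 3 over 3D, 2 to 3 at 5 days, and 1 to 2 for the difference between the 3D effects; here and elsewhere, a lone library in a group was assumed to vary like the others. Without a filter, 1 was called for 3D-2D-3D over 3D-2D and 2 over 3D-2D-2D. With only the groups compared it was 2 for 3D over 2D, 2 for 3D-2D over 3D, 1 for 3D-2D-3D over 3D, 5 at 5 days and 2 for the difference between 3D effects. With the replicate block in the fit of the groups compared it was 2 for 3D over 2D, 1 for 3D-2D over 2D, 6 at 5 days, 1 for 64 over 8 kPa and 2 for the difference. Where the numbers do not pair the libraries, the block added Masp1 in 3D-2D over 2D (1.52), C1ra, Cfb and Masp1 in 3D-2D over 3D (-1.12, -1.29 and 1.93), where C4b was not called (adjusted p = 0.129), Cfb and Masp1 in 3D-2D-3D over 3D-2D (1.86 and -0.88), where Serping1 was not called (0.0727), and Cd55 in 3D-2D-3D over 3D-2D-2D (-0.63); in these last comparisons Cfb and Cd55 were called with only the groups compared and no block too. With the most alike libraries summed it was 0 for 3D over 2D, 2 for 3D-2D over 3D, 1 for 3D-2D-3D over 3D-2D, 2 over 3D-2D-2D, 0 over 3D and 0 for the difference. Keeping only replicate 3 of 2D, 3D and 3D-2D-3D left a lone library in each of these groups, so no count is given. All libraries of 3D-2D and 3D-2D-2D were kept there. With only replicates 1 and 2 of 2D, 3D and 3D-2D-3D kept, the number called was 1 for 3D-2D over 2D. DESeq2 called 3 for the difference, and a subset chosen after seeing the data (replicates 2 and 3 at 5 days, 1 and 2 of 3D and 2D) called 0. Library totals alone moved the median of all genes by 0.16 in 3D over 2D, -0.16 in 3D-2D over 3D, 0.22 in 3D-2D-3D over 3D-2D-2D and 0.13 at 5 days, and ended the call of C1ra in 3D-2D-3D over 3D-2D-2D (-1.02, adjusted p = 0.0905). The causes were not tested. C7 is limited by depth in 2D, 3D-2D, 3D-2D-3D and on the substrates, where it had few counts.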
